A study of Homo sapiens with 8 samples.

Results

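C/EBP transcription factors were examined in A498 cells, an established cell line with a mutated VHL gene that represents clear cell renal carcinoma, left untreated or kept with interleukin-1β (IL1β). The members were chosen by symbol and are CEBPA, CEBPB, CEBPD, CEBPE, CEBPG and CEBPZ, 6 of the 59023 genes in the table. All 6 were found, and 5 of them had enough counts to be tested among 15062 genes. The untreated group had 4 libraries, called replicates 1 to 4. The IL1β group had 4 libraries, called replicates 5 to 8, from cells kept with 30 ng/ml IL1β for 4 h. Both groups were A498 cells grown in RPMI with FBS, penicillin and streptomycin, with no other agent or genetic change named. They come from 1 cell line, so the spread between libraries says nothing of other renal tumors. The labels do not say whether replicates were separate cultures, and the p-values therefore measure the spread between these libraries. The methods of the study speak of experimental pairs, but the labels do not tie an untreated library to an IL1β library, so every test here is unpaired.

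C/EBP proteins (CCAAT/enhancer-binding proteins) bind DNA through a basic region and pair with each other through a leucine zipper, together called a bZIP domain. CEBPB and CEBPD are known as factors of the acute-phase and inflammatory response, and act beside NF-kB at the promoters of cytokine genes. CEBPA halts proliferation and drives fat, liver and myeloid differentiation, CEBPE acts late in granulocyte formation, and CEBPG lacks most of the activation domain and often works as a partner of ATF4 or of other C/EBP proteins. CEBPZ carries the family's name because it was found through a CCAAT sequence, but it is no bZIP protein and is related to yeast factors of ribosome assembly. It is not the same as DDIT3 (CHOP), a bZIP protein for which the name C/EBPζ is also in use.

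The promoters of the members that could be shown are given first, CEBPB as a member whose IL1β and untreated libraries did not overlap, CEBPA and CEBPG as members whose libraries did. Each line is RefSeq sequence of GRCh38.p14, read 5′ to 3′ on the strand of the gene and ending at the base before the gene's first annotated base in GENCODE 44. Capitals mark matches, on either strand, to CCAAT, to TGACG (the core of the cAMP response element), to TATAAA, to TTNNGNAA (a C/EBP site), to TGANTCA (an AP-1 site), to TTCNNNGAA (a STAT site) or to the NF-kB motif. No matches overlapped.
CEBPB: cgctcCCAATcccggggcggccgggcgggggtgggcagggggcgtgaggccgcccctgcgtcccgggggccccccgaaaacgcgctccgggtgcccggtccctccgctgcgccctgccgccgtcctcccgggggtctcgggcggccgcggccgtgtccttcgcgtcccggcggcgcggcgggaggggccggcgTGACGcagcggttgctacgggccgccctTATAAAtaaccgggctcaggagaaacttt
CEBPA: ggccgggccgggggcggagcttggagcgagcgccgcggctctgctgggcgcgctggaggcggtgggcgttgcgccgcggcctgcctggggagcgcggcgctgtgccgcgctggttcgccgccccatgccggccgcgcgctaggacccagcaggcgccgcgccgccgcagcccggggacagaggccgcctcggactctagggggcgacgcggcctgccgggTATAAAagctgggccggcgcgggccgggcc
CEBPG: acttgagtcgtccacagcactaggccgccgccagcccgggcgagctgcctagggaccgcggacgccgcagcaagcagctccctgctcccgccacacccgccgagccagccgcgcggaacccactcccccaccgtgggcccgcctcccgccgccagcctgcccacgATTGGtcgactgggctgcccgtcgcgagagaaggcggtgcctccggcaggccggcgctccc
The CEBPB stretch is chr20:50190580-50190829 on the plus strand, 250 bases of which 77.6% are G or C. It lies within the span of the gene of the antisense RNA CEBPB-AS1. It holds TATAAA at bases 29 to 24 before the start of the gene, TGACG at bases 57 to 53 and CCAAT at bases 245 to 241. The CEBPA stretch is chr19:33302535-33302784 on the minus strand, 250 bases of which 81.2% are G or C, and holds TATAAA at bases 30 to 25 before the start and none of the other motifs. The CEBPG stretch is chr19:33373459-33373684 on the plus strand, 226 bases of which 75.7% are G or C, and holds a CCAAT match on the other strand (ATTGG), at bases 85 to 81 before the start that RefSeq gives. RefSeq lists 2 starts for CEBPB and for CEBPG, and the one nearer to the GENCODE start was used. Among the 250 bases before the start in 35116 RefSeq promoters, 32% held CCAAT, 21.2% held TGACG, 10.7% held TATAAA, 33.2% held the C/EBP motif, 6.57% held the AP-1 motif, 6.57% held the STAT motif and 5.21% held the NF-kB motif. The last 4 had no match in these 3 stretches, which says only that those letters are not in these windows. The promoter of CEBPD is not shown here.

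The libraries had 16610473 to 27040505 counts in the untreated group and 15409093 to 24000727 counts in the IL1β group, so that 1 count stood for 0.0367 to 0.0735 counts per 1000000 (CPM). All levels below are CPM scaled with the TMM factors of edgeR, as mean ± SD over 4 libraries. On the first principal component, which carried 42.7% of the variance, the libraries of untreated replicate 1 (-59.5) and IL1β replicate 5 (-102) were far from the other 6 (18.8 to 37.2). The 11 renal epithelial markers differed widely in untreated cells. KRT8 was at 939 CPM, KRT18 at 478 CPM and PAX8, the transcription factor that marks the renal lineage, at 150 CPM. KRT19 was at 8.44 CPM, PAX2 at 8.11 CPM and CA9 at 1.82 CPM. CDH6 was at 4.44 to 80.5 CPM, lowest in untreated replicate 1. With IL1β, CDH6 was at 1.40 CPM in replicate 5 and at 35.0 to 40.3 CPM in replicates 6 to 8. Of 7 leukocyte markers CD3E and MS4A1 were at 0 in every library. The list summed to 1.05 to 20.9 CPM in untreated cells and to 0.579 to 6.99 CPM with IL1β. Most of the highest sum of each group was LYZ, at 19.5 CPM in untreated replicate 1 and 6.52 CPM in IL1β replicate 8. The 5 fibroblast markers summed to 46.7 to 138 CPM in untreated replicates 1 to 3 and to 1182 CPM in untreated replicate 4, and to 90.1 to 431 CPM with IL1β. The 5 endothelial markers summed to 1.84 to 6.82 CPM over all libraries. In edgeR none of these marker lists had a member that fell (against 0.0598% of all genes tested), and PAX8 was the only one that rose (adjusted p = 0.0239, against 0.929% of all genes). That call was lost when any of untreated replicates 1, 2 or 3 or IL1β replicates 6, 7 or 8 was left out (adjusted p up to 0.107), and with DESeq2 1 renal marker fell. The part of the fibroblast markers in the results was not tested. In RNA from bulk cells, fewer cells of a type and less RNA per cell cannot be told apart.

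CEBPD was the only member that rose with IL1β. Its level was 7.31 ± 4.64 CPM in untreated cells and 67.3 ± 14.9 CPM with IL1β, 9.2-fold higher. CEBPB was higher in every IL1β library than in any untreated library, at 217 ± 26.8 CPM against 115 ± 29.7 CPM, but its 1.88-fold difference did not pass the test over all genes. CEBPA, CEBPG and CEBPZ overlapped between the groups, and CEBPE was close to absent. Over all genes tested, 140 rose (0.929%) and 9 fell (0.0598%) at an adjusted p under 0.05 in edgeR's quasi-likelihood test with Benjamini-Hochberg adjustment, and the IL1β libraries all lay above the untreated ones for 693 genes (4.6%). The IL1β libraries all lay below for 514 genes (3.41%). At an unadjusted p under 0.05, 938 genes were higher (6.23%) and 685 were lower (4.55%). Among the 5 members tested, 1 rose, 0 fell, 2 lay above and 0 below, and at an unadjusted p under 0.05 2 were higher and 0 lower.

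**Figure D1:**
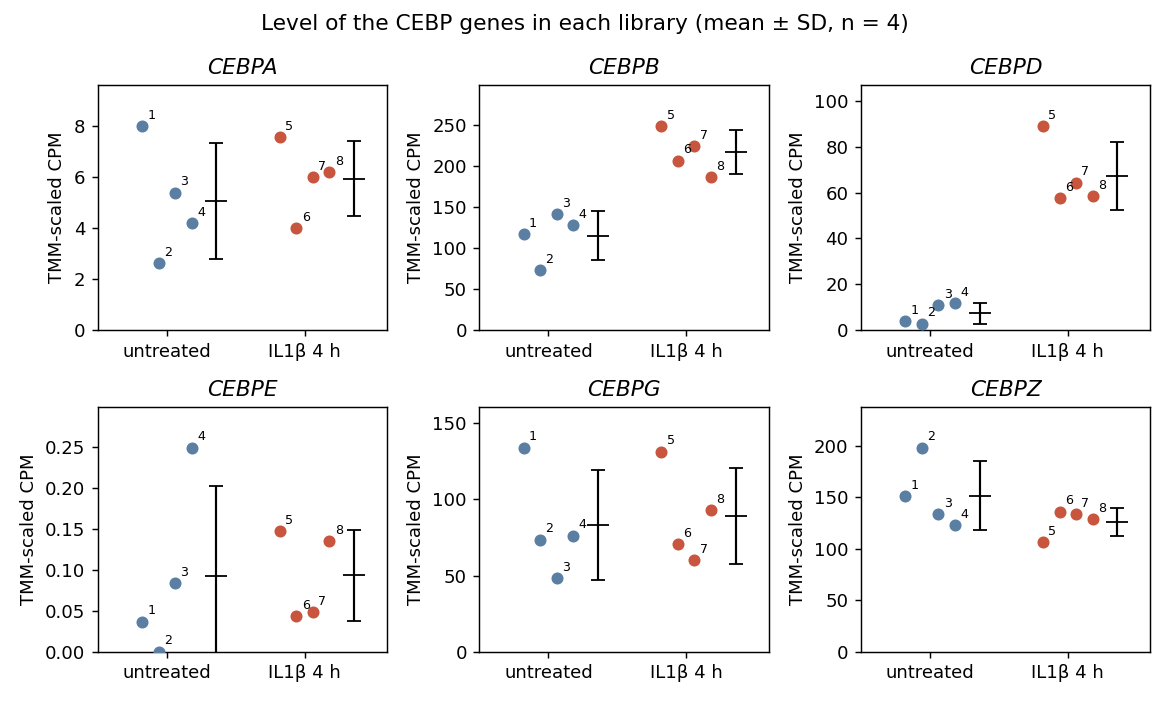
Level of each CEBP gene in TMM-scaled CPM (y axis, starting at 0 in each panel) for the untreated libraries 1 to 4 and the IL1β libraries 5 to 8 (numbered points), with the mean ± SD of each group beside them (the untreated CEBPE bar is cut at 0). The IL1β libraries lie above all untreated libraries for CEBPB (186 to 249 against 73.0 to 142) and CEBPD (57.4 to 89.2 against 2.72 to 11.7) and overlap them for the other 4 genes.

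CEBPD (ENSG00000221869.5, chr8:47736913-47738164, minus strand) is a gene with a single exon whose product is quickly made and quickly lost in acute-phase responses. Its counts were 107, 49, 259 and 235 in untreated replicates 1 to 4 and 1214, 1339, 1334 and 868 in IL1β replicates 5 to 8. Scaled to depth, the levels were 3.93, 2.72, 10.9 and 11.7 CPM without IL1β and 89.2, 57.4, 64.4 and 58.3 CPM with it. The untreated libraries fell into a lower and a higher pair, while the IL1β libraries differed less in proportion, with replicate 5 the highest. Every IL1β library was above every untreated library. The log2 fold change was 3.20 (SE 0.47, adjusted p = 0.0164, edgeR). The call was lost when IL1β replicate 8 was left out (adjusted p = 0.0527, log2 fold change 3.26), and over the other alternatives the adjusted p lay between 3.0e-10 and 0.0442. When untreated replicate 1 and IL1β replicate 5 were both left out, the log2 fold change was 2.84 and the adjusted p 0.0139.

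CEBPB (ENSG00000172216.6, chr20:50190830-50192668, plus strand), also a gene with a single exon, encodes activating and inhibitory forms of the protein from alternative start codons of the same mRNA, which counts per gene do not separate. Its counts were 3192, 1317, 3373 and 2572 without IL1β and 3394, 4821, 4656 and 2770 with it. The scaled levels were 117, 73.0, 142 and 128 CPM in untreated replicates 1 to 4 and 249, 207, 225 and 186 CPM in IL1β replicates 5 to 8. The lowest IL1β library was above the highest untreated library. The log2 fold change was 0.91 (SE 0.22, p = 0.00212, adjusted p = 0.106, edgeR), and an exact two-sided permutation test over all 70 groupings of the 8 libraries gave p = 0.0286, the smallest that 4 against 4 can give. With DESeq2 the log2 fold change was 0.92 and the adjusted p 0.00944, where 423 genes rose (2.81%), so that the call on CEBPB depends on the tool. The study's thresholds (an unadjusted p below 0.01 together with a log2 difference over 1) were also applied to the edgeR values. In this way 320 genes passed upward (2.12%), CEBPD among them, and CEBPB did not pass. The study itself used limma, so these are not its own calls.

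CEBPB-AS1, an RNA that overlaps CEBPB on the other strand, was at 0.798 ± 0.46 CPM without IL1β and 1.54 ± 1.03 CPM with it (log2 fold change 0.92, SE 0.59, adjusted p = 0.659, edgeR). IL1β replicate 5 held the highest level, 3.09 CPM, and the other IL1β libraries were at 0.941 to 1.16 CPM. The libraries were stranded, but the strand setting of the counting is not given in the sources used here, so reads of CEBPB and of its antisense RNA cannot be told apart with certainty.

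CEBPA (ENSG00000245848.3, chr19:33299934-33302534, minus strand) was low in A498 cells. Its levels were 8.0, 2.60, 5.38 and 4.18 CPM in untreated replicates 1 to 4 and 7.57, 3.99, 5.98 and 6.18 CPM in IL1β replicates 5 to 8. The groups overlapped, with replicates 1 and 5 the highest of their group and replicates 2 and 6 the lowest. The means were 5.04 ± 2.27 and 5.93 ± 1.47 CPM (log2 fold change 0.23, SE 0.36, adjusted p = 0.889, edgeR). CEBPA-DT, a divergent transcript that starts 323 bases from CEBPA, was at 1.10 ± 0.77 and 0.744 ± 0.586 CPM (log2 fold change -0.60, SE 0.66, adjusted p = 0.816).

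CEBPE (ENSG00000092067.7, chr14:23117036-23120256, minus strand) had 1, 0, 2 and 5 counts in untreated replicates 1 to 4 and 2, 1, 1 and 2 counts in IL1β replicates 5 to 8. A count of 0 allows up to 3 counts, or 0.11 to 0.22 CPM depending on the library, and this covers counting error only. All libraries but untreated replicate 4 had fewer than 3 counts. CEBPE did not reach the count filter of edgeR, and a fold is not given.

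CEBPG (ENSG00000153879.9, chr19:33373685-33382686, plus strand), which lies 71151 bases from CEBPA, was at 134, 73.6, 48.3 and 76.2 CPM in untreated replicates 1 to 4 and at 131, 70.7, 60.2 and 92.8 CPM in IL1β replicates 5 to 8. The highest library of each group was the library that stood apart on the first principal component, and the rest of the groups overlapped. The means were 83.0 ± 36.3 and 88.8 ± 31.5 CPM (log2 fold change 0.10, SE 0.34, adjusted p = 0.962, edgeR). The sign of this small difference was not stable, and turned to -0.066 when libraries were scaled by size only, to -0.091 without untreated replicate 3 and to -0.16 without IL1β replicate 5. Without untreated replicate 1 and IL1β replicate 5 together it was 0.20.

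CEBPZ (ENSG00000115816.15, chr2:37201612-37231596, minus strand) was at 151, 198, 134 and 123 CPM in untreated replicates 1 to 4 and at 107, 136, 134 and 129 CPM in IL1β replicates 5 to 8. The groups overlapped, with untreated replicate 2 the highest and IL1β replicate 5 the lowest. The means were 151 ± 33.3 and 126 ± 13.5 CPM (log2 fold change -0.26, SE 0.19, adjusted p = 0.704, edgeR). CEBPZOS, a gene for a small mitochondrial protein on the other strand that overlaps CEBPZ, was lower in every IL1β library than in any untreated one, at 62.8 ± 1.1 against 77.6 ± 8.41 CPM, but did not pass the test (log2 fold change -0.31, SE 0.14, adjusted p = 0.498). Reads of this overlapping pair cannot be told apart with certainty, for the same reason as above.

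To compare members with each other, levels were divided by the length of the union of their annotated exons. In untreated cells the order of mean CPM per kilobase was CEBPB (62.5 ± 16.2), CEBPZ (43.1 ± 9.48), CEBPG (20.5 ± 8.95), CEBPD (5.84 ± 3.71), CEBPA (1.94 ± 0.87) and CEBPE (0.0524). The ranges of CEBPB and CEBPZ overlapped, as did those of CEBPD and CEBPA, while CEBPG stood between the pairs without overlap. With IL1β the order was CEBPB (118 ± 14.6), CEBPD (53.8 ± 11.9), CEBPZ (35.9 ± 3.83), CEBPG (21.9 ± 7.77), CEBPA (2.28 ± 0.57) and CEBPE (0.0528). CEBPD was above CEBPZ and CEBPG and below CEBPB in every IL1β library, and CEBPZ and CEBPG overlapped.

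The 5 bZIP members summed to 90.8 ± 19.9 CPM per kilobase without IL1β and to 196 ± 31.8 with it, and the groups did not overlap. CEBPB held the largest share of this sum in all 8 libraries, 68.5 ± 6.70% without IL1β and 60.5 ± 3.90% with it, and its shares overlapped between the groups. The share of CEBPD was 3.05%, 3.56%, 8.71% and 9.39% in untreated replicates 1 to 4 and 29.4%, 25.9%, 27% and 26.9% in IL1β replicates 5 to 8. No untreated share reached an IL1β share, and the CEBPD share varied less between the IL1β libraries (SD 1.5) than between the untreated ones (SD 3.34). CEBPG held 23.2 ± 9.45% without IL1β and 11.1 ± 2.72% with it, and these shares overlapped. CEBPA held 2.08 ± 0.64% and 1.16 ± 0.21%, with every IL1β library below every untreated one although the CEBPA level itself overlapped. CEBPB exceeded CEBPD by 20.3, 18.3, 8.87 and 7.45 times per kilobase in untreated replicates 1 to 4 and by 1.90, 2.45, 2.38 and 2.17 times in IL1β replicates 5 to 8. The CEBPD level per kilobase was below that of CEBPG in all untreated libraries (ratios of 0.095 to 0.73) and above it in all IL1β libraries (2.04 to 3.46).

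**Figure D2:**
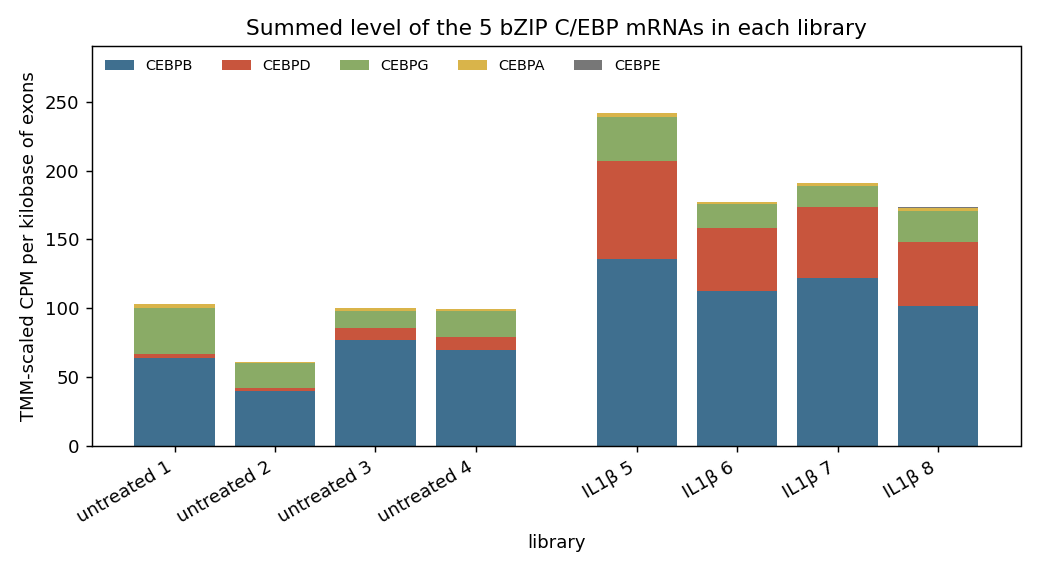
Summed level of the 5 bZIP C/EBP mRNAs in TMM-scaled CPM per kilobase of exons (y axis, from 0), stacked by gene for each library (x axis). The IL1β bars are higher than all untreated bars, and the CEBPD segment makes up 25.9% to 29.4% of them against 3.05% to 9.39% of the untreated bars.

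The genes whose pattern over the 8 libraries was most like that of each member were sought among 10684 genes with a mean of at least 5 CPM, by the root mean square difference of centred log2 CPM. For CEBPD these were NFKBIZ (0.57), TNFAIP6 (0.62) and ICOSLG (0.63), against an SD of 1.83 for CEBPD itself. NFKBIZ encodes a nuclear IκB protein, TNFAIP6 a hyaluronan-binding protein and ICOSLG a costimulatory ligand. All 3 rose, which follows from choosing them for a pattern that holds the difference between the groups. The untreated levels of ICOSLG lay between 1.6 and 1.99 CPM, closer together than those of CEBPD. For CEBPB they were FBRS (0.13), BAK1 (0.16), a mediator of apoptosis, and NINJ1 (0.17), which acts in membrane rupture of dying cells, and none of the 3 passed the test (adjusted p = 0.0811, 0.0934 and 0.148, edgeR). For CEBPG they were RALA (0.074), PRKAG2 (0.076) and ARF4 (0.092), each highest in its group in replicates 1 and 5. For CEBPZ they were SOS1 (0.033), CUL3 (0.072) and FOPNL (0.077), and for CEBPA they included CHRNB1 (0.23) and ALDH4A1 (0.23). A lower floor of 1 CPM put PKD1P1 among the 3 for CEBPA and FP565260.3 among the 3 for CEBPD, each in place of the third gene, and left the other lists as they were. Within 100 kb of the members lay 28 genes, CEBPA and CEBPG being counted as neighbours of each other, and 18 of them were tested. None of the 18 rose or fell in edgeR, DESeq2 or limma-voom, and of all genes 0.929% rose and 0.0598% fell in edgeR. At an unadjusted p under 0.05, 0 were higher and 0 lower in edgeR (against 6.23% and 4.55%), and 1 was lower with DESeq2. With shares this small, 0 of 18 says little of the neighbours. SPIDR, 607 bases from CEBPD, was at 39.4 CPM without IL1β and 37.7 CPM with it.

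Of the lists of partners, regulators and targets, that of inflammatory and acute-phase targets of CEBPB and CEBPD had the highest median difference. The list was chosen with earlier results of these data known. It includes cytokine genes at whose promoters these proteins act beside NF-kB. The part of CEBPB and CEBPD in the levels of these genes was not tested. Of 25 genes in the list, 19 were tested, 8 rose (against 0.929% of all genes) and 0 fell, and 16 lay above the untreated libraries in every IL1β library (against 4.6%). At an unadjusted p under 0.05, 17 were higher (against 6.23% of all genes) and 0 lower (against 4.55%). The median log2 fold change was 2.88, against -0.02 over all genes tested. CEBPB and CEBPD are themselves in this list, and without them 7 of 17 rose. TNFAIP6 rose from 19.4 ± 6.96 to 191 ± 16.3 CPM (log2 fold change 3.30, SE 0.31, adjusted p = 0.00172, edgeR), and G0S2, an inhibitor of fat breakdown, from 63.7 ± 19.4 to 408 ± 99.5 CPM (2.68, SE 0.28, adjusted p = 0.004). NOS2, SAA2, SOD2, CXCL8 and CCL2 also rose, at log2 fold changes of 2.58 to 6.61. The highest, that of NOS2, rests on 1, 4, 6 and 2 counts in untreated replicates 1 to 4, and SAA2 had 12, 9, 2 and 21 there. With IL1β, NOS2 was at 3.31, 19.5, 20.9 and 16.6 CPM in replicates 5 to 8. The calls on SOD2, CXCL8 and CCL2 were each lost on leaving out replicate 1, 2, 6, 7 or 8 (adjusted p up to 0.101, 0.118 and 0.162, edgeR). That on CCL2 was also lost without replicate 5, under upper-quartile factors and under scaling by library size. It was lost too when replicates 1 and 5 were both left out (adjusted p = 0.0538, edgeR). SAA2 is near-identical to SAA1 and SOD2 overlaps WTAP on the other strand, so their counts are uncertain where reads fit both genes. IL6, a well-known C/EBPβ target, was at 42.0, 63.5, 8.61 and 183 CPM without IL1β and at 1408, 965, 289 and 1433 CPM with it. The groups did not overlap, but IL6 did not pass over all genes (log2 fold change 3.79, SE 0.86, adjusted p = 0.0847, edgeR). It did meet the study's thresholds on the edgeR values (unadjusted p = 0.00141). The paper reports IL6 as induced by IL1β in its own RNA-seq calls and in qRT-PCR of A498 cells. The classical liver acute-phase genes CRP and HAMP were at 0 in every library, and HP, ORM1, ORM2 and SERPINA3 were also too low to test. The count of 8 was 5 without untreated replicate 2, 5 without IL1β replicate 6, 5 without IL1β replicate 7 and 4 without IL1β replicate 8, and 10 when untreated replicate 1 and IL1β replicate 5 were both left out.

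**Figure D3:**
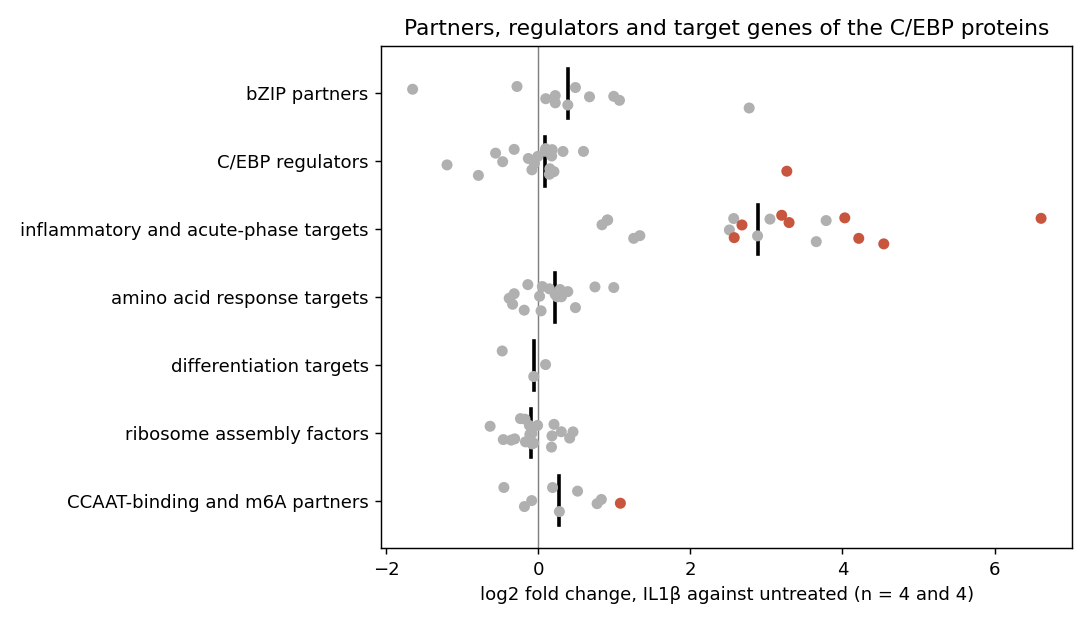
Log2 fold change of IL1β against untreated cells (x axis) for each tested gene (points) of 7 lists of partners, regulators and target genes (y axis), with red points for genes that rose, grey points for those that did not pass the test, and a black bar at the median of each list. The median is 2.88 for inflammatory and acute-phase targets and between -0.09 and 0.39 for the other lists.

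Of 12 bZIP proteins that can pair with C/EBP proteins, 11 were tested, 0 rose and 0 fell, with a median log2 fold change of 0.39 (3 higher and 1 lower at an unadjusted p under 0.05, and 2 that rose with DESeq2, against 6.23%, 4.55% and 2.81% of all genes). ATF4, the main factor of the integrated stress response, was at 311 ± 47.4 and 364 ± 140 CPM, and JUN, an AP-1 subunit, at 156 ± 53.8 and 249 ± 101.5 CPM. ATF5, a relative of ATF4 chosen after its values were seen, was at 57.0, 43.5, 46.6 and 53.8 CPM without IL1β and at 123, 103, 102 and 72.4 CPM with it, with no overlap and an adjusted p of 0.0521 (log2 fold change 0.99, SE 0.20, edgeR). Larger log2 fold changes, with groups that overlapped, were those of BATF2 (2.77, SE 0.62, adjusted p = 0.0843), BATF3 (1.07, SE 0.34, adjusted p = 0.254) and FOS (-1.65, SE 0.63, adjusted p = 0.362, all edgeR). BATF2 was low, at 0.697, 0.333, 0.336 and 1.25 CPM (19, 6, 8 and 25 counts) in untreated replicates 1 to 4. With IL1β it was at 1.10, 6.56, 6.08 and 4.17 CPM in replicates 5 to 8, so only replicate 5 overlapped the untreated libraries.

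Of 20 proteins that control the level or activity of C/EBP proteins, 19 were tested. In edgeR 1 rose and 0 fell (against 0.929% and 0.0598% of all genes), with a median log2 fold change of 0.09. At an unadjusted p under 0.05, 2 were higher and 3 lower (against 6.23% and 4.55%). With DESeq2 2 fell, which 0.724% of all genes did. The gene that rose in edgeR was NFKBIZ, whose product IκBζ binds C/EBP and NF-kB proteins at inflammatory promoters, from 9.13, 13.1, 12.02 and 27.5 CPM to 174, 115, 121 and 184 CPM (log2 fold change 3.27, SE 0.37, adjusted p = 0.00566, edgeR). The groups did not overlap. TRIB1, which with COP1 directs the breakdown of C/EBPα, was at 39.4 ± 8.68 and 45.6 ± 3.96 CPM, and COP1 at 52.4 ± 7.68 and 50.6 ± 3.26 CPM. ID2, an inhibitor of helix-loop-helix factors, was lower in every IL1β library (17.1 ± 4.58 against 7.46 ± 1.51 CPM) without passing the test (log2 fold change -1.20, SE 0.26, adjusted p = 0.0772).

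Targets of ATF4 and CEBPG in the amino acid response did not pass in either direction in edgeR. Of 19 tested genes 0 rose and 0 fell (against 0.929% and 0.0598% of all genes), with a median log2 fold change of 0.22. At an unadjusted p under 0.05 in edgeR, 1 was higher (against 6.23%), and 1 rose with DESeq2 (against 2.81%). The gene higher in edgeR was ATF5, already given above. ATF3, ATF5 and DDIT3 are in both this list and that of the bZIP partners, so the 2 lists are not separate evidence. Of the 19, 10 were highest in untreated replicate 1 and in IL1β replicate 5 within their groups, 6 in only 1 of these libraries and 3 in neither, and 23% of all genes tested were highest in both. CEBPG was 134 and 131 CPM in replicates 1 and 5 and 48.3 to 92.8 CPM in the other 6. DDIT3 (CHOP), a stress-induced bZIP partner, was 95.4 and 151 CPM in replicates 1 and 5 and 11.3 to 31.3 CPM in the others, and TRIB3, its target, was 216 and 229 CPM against 35.2 to 125 CPM. CHAC1, an enzyme that degrades glutathione, was 15.3 and 25.4 CPM against 2.27 to 14.1 CPM, and ATF4 was 363 and 572 CPM against 265 to 339 CPM. The heat shock gene HSPA1A, which like ATF4 and CEBPG is not in this list, was 485 and 915 CPM in these libraries and 62.1 to 117 CPM in the others. DDIT3, TRIB3, CHAC1 and HSPA1A were named after their values were seen, and their part in the CEBPG level was not tested. By the mean over both groups the most abundant genes of the list were SLC3A2, a transporter subunit (527 ± 123 and 641 ± 168 CPM), and MTHFD2, an enzyme of mitochondrial folate metabolism (339 ± 137 and 420 ± 128 CPM).

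**Figure D4:**
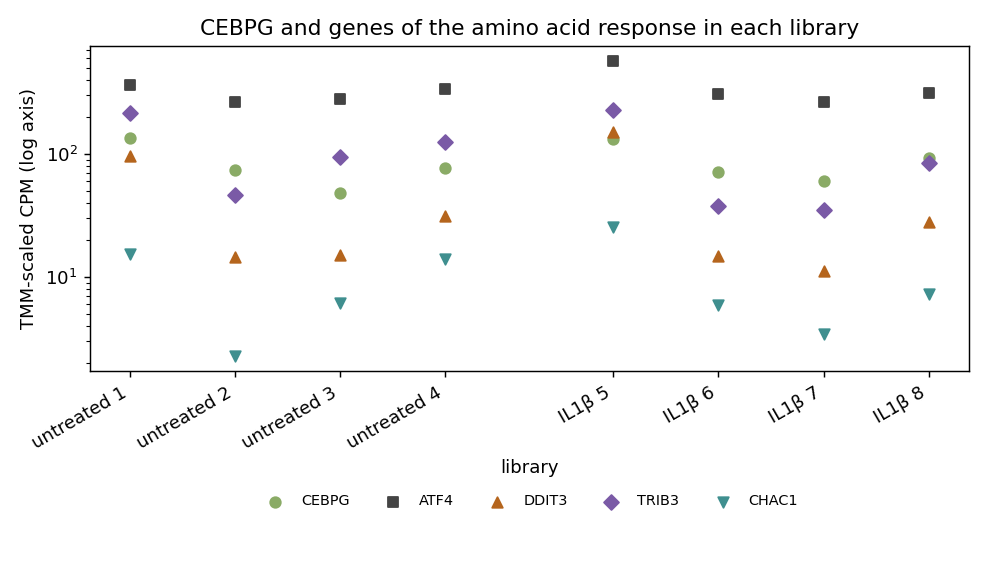
Level of CEBPG, ATF4, DDIT3, TRIB3 and CHAC1 in TMM-scaled CPM (y axis, log scale) in each library (x axis). All 5 genes are highest in untreated replicate 1 and IL1β replicate 5 within their groups, with DDIT3 at 95.4 and 151 CPM there and at 11.3 to 31.3 CPM in the other 6 libraries.

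Of 19 differentiation targets of C/EBP proteins in fat, liver and myeloid cells, only 3 were tested. None of the 3 rose or fell in edgeR (against 0.929% and 0.0598% of all genes) or DESeq2 (against 2.81% and 0.724%). At an unadjusted p under 0.05, 0 were higher and 0 lower (against 6.23% and 4.55% in edgeR). With shares this small, 0 of 3 says little of these targets. ADIPOQ, LEP, TTR, MPO, CAMP and G6PC were at 0 in every library. PPARG, the master factor of fat cell formation, was at 29.9 ± 9.93 and 21.5 ± 7.43 CPM, and CPS1, a urea cycle enzyme, at 11.5 ± 3.56 and 11.01 ± 6.24 CPM. The 3 hepatocyte and 3 adipocyte markers summed to at most 1.43 and 1.89 CPM.

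Around CEBPZ, none of 20 ribosome assembly factors rose or fell in edgeR (against 0.929% and 0.0598% of all genes). None did with DESeq2 (against 2.81% and 0.724%). Their median log2 fold change was -0.09. At an unadjusted p under 0.05 in edgeR, 0 were higher and 1 lower (against 6.23% and 4.55% of all genes). NPM1 was at 1174 ± 187 and 1128 ± 117 CPM and NCL, nucleolin, at 1094 ± 121 and 1016 ± 62.3 CPM. Of 9 CCAAT-binding and m6A partners 1 rose and 0 fell (against 0.929% and 0.0598% of all genes), with a median of 0.28 (against -0.02). It was WTAP, a subunit of the complex that methylates adenosine in mRNA, which went from 76.2 ± 18.7 to 161 ± 11.3 CPM (log2 fold change 1.08, SE 0.20, adjusted p = 0.0411, edgeR). The call was lost under upper-quartile factors, under scaling by library size, and when any of untreated replicates 1, 2 or 3 or IL1β replicates 6, 7 or 8 was left out (adjusted p up to 0.138), and WTAP overlaps SOD2 on the other strand. METTL3, the enzyme of that complex and a protein with which CEBPZ is known to act, was at 25.6 ± 7.68 and 29.1 ± 6.86 CPM, and NFYA, a subunit of the CCAAT-binding NF-Y, at 50.8 ± 12.6 and 47.9 ± 7.47 CPM.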

How the data were processed

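RNA of A498 cells was sequenced in 4 untreated libraries and in 4 libraries kept with IL1β. The authors aligned reads of stranded libraries to hg38 with STAR 2.5.3a, counted them with featureCounts and deposited raw counts per gene. The version and strand setting of featureCounts and the annotation were not given in the sources used here. Of 59050 entries, 27 named by a date were left out (0.197% to 0.236% of a library). The totals stand in the results and limit genes of a few counts.

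Coordinates and exon lengths came from GENCODE 44, promoters from RefSeq (GRCh38.p14). In R 4.3.3, edgeR 4.0.16 (filterByExpr, TMM, quasi-likelihood F test on the condition) was run over all genes and adjusted p-values follow Benjamini and Hochberg. The SE is the log2 fold change divided by the square root of F. The script was tested on simulated data. Exact permutation tests used the group means. Alternatives were RLE or upper-quartile factors, library size only, no filter, 1 CPM in 4 libraries, DESeq2 1.42.0, limma-voom (limma 3.58.1), each library left out, replicates 1 and 5 left out together, and the study's thresholds put on the main edgeR fit.

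The members and the 13 gene lists were chosen with earlier results of these data known. Genes named are the members, RNAs whose symbol begins with CEBP, per list up to 2 that rose and 2 that fell with the smallest p (otherwise the 2 most abundant), and the 3 most like each member, of which 1 is not reported here. Any other gene was named after its values were seen.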

Additional observations from a re-analysis of the deposited data

Results flagged for a closer look

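Within a group of 4 libraries, 21 of 138 Dixon tests at the 95% level (69 of the genes and shares named in the results, in both groups) found a library far from the other 3, where chance alone flags about 1 in 20 groups. IL1β replicate 5 was the highest of its group for CEBPB-AS1 (3.09 CPM), ATF4 (572 CPM), DDIT3 (151 CPM), HSPA1A (915 CPM), CHRNB1 (14.0 CPM), FBRS (196 CPM) and NINJ1 (445 CPM), the last 3 being genes whose pattern was most like that of CEBPA or CEBPB. It was the lowest for METTL3 (18.9 CPM) and SPIDR (24.4 CPM), and IL1β replicate 7 was the lowest for COP1 (45.8 CPM) and CXCL8 (3574 CPM). Untreated replicate 1 was the highest of its group for ALB (1.03 CPM), APOA1 (0.404 CPM), HSPA1A (485 CPM) and LYZ (19.5 CPM), and the lowest for TNFAIP6 (8.95 CPM). Untreated replicate 4 was the highest for the collagen genes COL1A1 (680 CPM) and COL1A2 (431 CPM). IL1β replicate 6 was the highest for COL1A1 (273 CPM) and FABP4 (1.29 CPM), and IL1β replicate 8 for LYZ (6.52 CPM). No extreme of CEBPA, CEBPB, CEBPD, CEBPG or CEBPZ was among them.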

How the results depend on the processing

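No paired analysis was possible because the labels number the libraries 1 to 8 without saying which untreated and IL1β libraries belong together. CEBPD kept its direction in all alternatives (log2 fold change 2.93 to 3.52 when each library was left out), and was called in all but the fit without IL1β replicate 8. CEBPB was called only by DESeq2 (0.92). CEBPG reversed when scaled by library size only (-0.066) and ranged from -0.16 to 0.43 when each library was left out. The calls on CEBPA and CEBPZ did not change in any of 16 alternatives. Members that rose numbered 2 with DESeq2 and 0 to 1 with a library left out.

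Over all genes, 140 rose in the main analysis, 230 with no filter, 423 with DESeq2, 378 with replicates 1 and 5 left out together, 320 under the study's thresholds and 38 to 218 with a library left out (58 and 68 without untreated replicates 2 and 3, 218, 42, 59 and 38 without IL1β replicates 5 to 8). Those that fell were 9, against 15 with upper-quartile factors, 109 with DESeq2, 54 with both libraries left out, 71 under the study's thresholds and 0 to 12 with a library left out. The median log2 fold change over the tested genes moved from -0.02 to -0.10 with upper-quartile factors and to -0.18 with library size only.

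Inflammatory targets that rose were 13 with no filter, 16 with DESeq2, 14 under the study's thresholds and 4 to 10 with a library left out. For bZIP partners the number was 1 with RLE factors, the filter of 1 CPM, limma-voom or the study's thresholds, 2 with no filter, DESeq2 or both libraries left out, and 0 to 1 with a library left out. For amino acid response targets it was 1 with RLE factors, no filter, the filter of 1 CPM, DESeq2, limma-voom or both libraries left out. For regulators, 2 fell with DESeq2, 1 with both libraries left out or under the study's thresholds, and 0 to 1 with a library left out. For CCAAT-binding and m6A partners, 0 rose with upper-quartile factors or library size only, and 0 to 1 with a library left out. The cause of these moves was not tested. Levels of a few counts, such as those of CEBPE, are limited by depth.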
